A study of Mus musculus with 24 samples.

Results

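The livers of WT mice that had been without food for 12 h were compared with the livers of WT mice that had food at all times. The 2 groups were the 3 libraries of fasted and the 3 libraries of ad libitum fed WT mice killed at 10:30, and these 6 libraries were chosen by their labels from the 24 of the series. All mice were male, 16 to 20 weeks old, on a mixed 129/Sv plus C57BL/6 background, and ate LabDiet 5001 chow. Food was taken away at 22:30, so that the fast covered 8.5 h of the dark phase, when mice eat most, and 3.5 h of the light phase. Each mouse gave 1 poly(A) RNA library, all 6 libraries were sequenced on flow cell 375, and reads per gene were counted by the authors. The rest of the series holds fed WT livers of 13:30 and 20:30 and livers of α7HMZ mice, an exon swap line that makes only P2-HNF4α, fed at the same times or fasted in the same way (3 mice in each group).

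A liver that receives no food changes from storing fuel to releasing it. Insulin falls while glucagon and glucocorticoids rise, fatty acids arrive from adipose tissue, and the nuclear receptor PPARα turns on the genes that burn them and make ketone bodies from them. The SREBP factors, which drive the synthesis of fatty acids and cholesterol after a meal, become less active, and transcription factors such as CREB and FOXO1 raise genes of glucose production. Livers of whole animals were sequenced, so fewer cells of a type and less RNA per cell cannot be told apart.

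Fasting raised 1575 and lowered 1393 of the 13103 genes that could be tested (edgeR's quasi-likelihood test, Benjamini-Hochberg adjusted p under 0.05). These calls took 22.7% of all genes tested, with 12.0% called higher and 10.6% called lower. The median log2 fold change was 0.72 among the genes called higher, -0.80 among those called lower and 0.004 over all genes tested. A change of at least 2-fold (an absolute log2 fold change of 1) was reached by 442 of the genes called higher and 462 of those called lower. The 3 fasted and 3 fed values did not overlap for 46.4% of all genes tested, and for 1559 of the genes called higher and 1387 of those called lower. With fed replicate 1, 2 or 3 left out, 991, 931 or 1032 genes were called higher and 908, 850 or 950 lower. Calls named below that were lost when 1 of the 6 WT libraries was left out carry the range of their adjusted p in those fits.

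**Figure D1:**
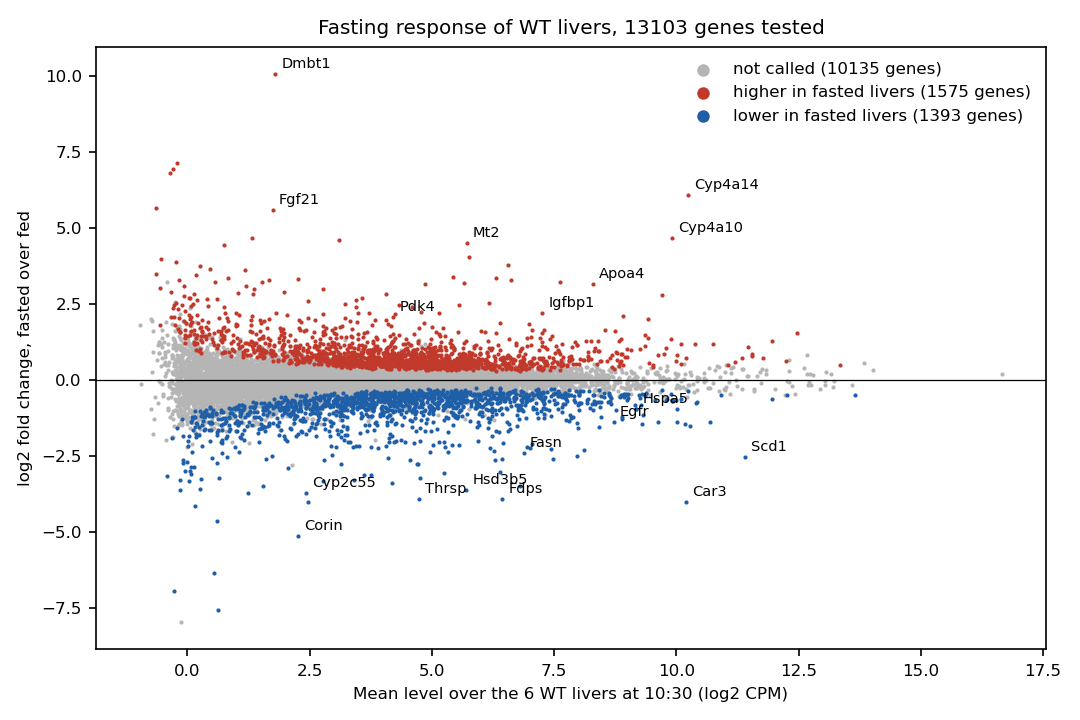
Each point is 1 of the 13103 genes tested, with its mean level over the 6 WT livers on the x axis (log2 CPM) and its log2 fold change, fasted over fed, on the y axis. The 1575 genes called higher in fasted livers are red, the 1393 called lower are blue, and Cyp4a14 and Cyp4a10 stand out by being both abundant and strongly higher.

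Total counts were 18691369 to 22283016 in fasted and 12973444 to 23175751 in fed WT livers. The albumin gene Alb took 9.11% to 11.8% of the counts in fasted and 8.22% to 10.5% in fed livers, and 7 of the 8 hepatocyte markers passed no threshold (Ttr was lower, with an edgeR adjusted p of 0.0877 to 0.145 without any 1 of 5 of the libraries). The fasted livers varied more among themselves than the fed ones (chi-square per degree of freedom between pairs of livers 33.5 to 87.7 and 12.0 to 12.7), and replicates 1 and 3 lay at opposite ends. In fasted replicate 3 the longest transcripts (at least 4834 bases) had a median log2 deviation of -0.21 from the other 2 fasted livers and the shortest (at most 2193 bases) one of 0.25, while in fasted replicate 1 the values were 0.15 and -0.20. The corresponding values in the fed livers were -0.06 to 0.10 and -0.02 to 0.02. With fasted replicate 3 left out of the fit of 12 libraries, 1143 genes were called higher and 932 lower, and with the WT livers alone and that library left out 2069 and 1971. Genes called higher also had a higher GC content (median 53.7%) than genes called lower (47.4%) or all genes (49.5%). The median log2 fold change was 0.22 over the genes richest in GC (above 54.2%) and -0.10 over the poorest (below 44.7%), against 0.05 and 0.02 after a correction for GC content. Under that correction 78.3% of the calls were kept and none changed direction.

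Markers of other liver cells moved too. All 10 Kupffer cell markers had lower values, and 2 of them were called (20.0%, against 22.7% of all genes). The summed level of the 10 was 125 to 229 CPM in fasted and 342 to 455 CPM in fed livers. Of 10 sinusoidal endothelial markers 7 were lower, with sums of 255 to 405 CPM in fasted and 534 to 624 CPM in fed livers, and of 10 stellate cell markers 5 were lower, with sums of 274 to 363 CPM in fasted and 355 to 454 CPM in fed livers. Cholangiocyte markers were called higher for 4 of 7, with Krt19 at 7.07, 4.63 and 1.27 CPM in fasted livers and 0.817, 1.11 and 1.14 CPM in fed livers (edgeR adjusted p = 0.0104, and 0.0521 without fed replicate 1), and 1 to 4 of these markers were called with each WT library left out in turn. Without fasted replicate 3 the counts of lower genes were 0 of the Kupffer, 6 of the endothelial and 2 of the stellate markers. The part of these shifts in the results below was not tested.

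Promoters of 5 genes are shown first, as examples from the fasting hormones, cholesterol synthesis and the ER chaperones described below. They are the 250 bases before the annotated start in the RefSeq table of the build GRCm38.p6, the assembly also called mm10, printed 5′ to 3′ in the direction of the gene. Of the genes tested, 10250 had a promoter in the table. In Fgf21, the gene of a fasting hormone, capitals mark an ATF4 element core (TGATGCAA, here read on the other strand as TTGCATCA) and an E-box (CACGTG). In Inhbe, the gene of the activin E subunit, they mark an ATF4 element core.
Fgf21, chr7:45615491-45615740, minus strand: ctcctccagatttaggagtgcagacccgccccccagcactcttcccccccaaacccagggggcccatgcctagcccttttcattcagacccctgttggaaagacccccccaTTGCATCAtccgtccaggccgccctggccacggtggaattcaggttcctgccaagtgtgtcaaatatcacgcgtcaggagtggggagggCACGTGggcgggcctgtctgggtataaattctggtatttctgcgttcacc
Inhbe, chr10:127351849-127352098, minus strand: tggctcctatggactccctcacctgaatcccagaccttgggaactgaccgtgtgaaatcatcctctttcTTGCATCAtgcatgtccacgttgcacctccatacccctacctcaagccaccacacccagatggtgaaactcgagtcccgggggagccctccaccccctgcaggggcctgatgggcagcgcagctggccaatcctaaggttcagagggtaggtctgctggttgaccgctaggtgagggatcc
In Hmgcs1, the gene of the cytosolic HMG-CoA synthase of cholesterol synthesis, and Srebf2, the gene of the factor SREBP-2, capitals mark the sterol element core (TCACCCCA) and CCAAT boxes, and in Hspa5, the gene of the ER chaperone BiP, CCAAT boxes (CCAAT, or ATTGG on the other strand).
Hmgcs1, chr13:119690101-119690350, plus strand: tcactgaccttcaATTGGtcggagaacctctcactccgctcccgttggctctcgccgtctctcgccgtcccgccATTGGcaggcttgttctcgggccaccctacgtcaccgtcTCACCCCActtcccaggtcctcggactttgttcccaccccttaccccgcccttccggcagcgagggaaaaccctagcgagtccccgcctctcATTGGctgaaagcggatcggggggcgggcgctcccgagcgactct
Srebf2, chr15:82147019-82147268, plus strand: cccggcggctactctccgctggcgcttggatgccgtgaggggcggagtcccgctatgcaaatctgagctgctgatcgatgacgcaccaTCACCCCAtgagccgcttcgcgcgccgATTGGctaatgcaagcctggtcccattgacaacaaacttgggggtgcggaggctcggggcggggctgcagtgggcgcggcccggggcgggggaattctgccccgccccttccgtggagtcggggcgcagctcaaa
Hspa5, chr2:34771840-34772089, plus strand: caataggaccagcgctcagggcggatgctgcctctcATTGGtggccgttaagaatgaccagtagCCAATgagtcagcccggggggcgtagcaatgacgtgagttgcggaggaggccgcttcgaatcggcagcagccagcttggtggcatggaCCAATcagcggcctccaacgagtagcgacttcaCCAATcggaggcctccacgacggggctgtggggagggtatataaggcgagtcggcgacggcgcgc

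No 2 of the marked matches overlap. Over the whole 300 bases of each table entry, 50 bases after the start included and both strands read, CCAAT was in the promoter of 17 of 18 cholesterol synthesis genes (94.4%) and 20 of 24 ER chaperone and unfolded protein response genes (83.3%), against 42.7% of all promoters. The ATF4 core was in 7 of 25 promoters of the list of ATF4 targets (28.0%), against 0.849% of all. The sterol core was in 2 of 18 promoters of cholesterol synthesis genes (11.1%), against 1.84% of all. Those were the Hmgcs1 and Srebf2 promoters printed above, so these examples do not stand for the list in that match. Among all genes called higher and all called lower, the shares were 4.35% and 2.12% for the cAMP response element (TGACGTCA), 13.1% and 9.39% for the E-box, 1.53% and 2.58% for the sterol core, 1.05% and 1.10% for the ATF4 core, and 42.9% and 49.2% for CCAAT, against 3.37%, 11.6%, 1.84%, 0.849% and 42.7% of all promoters. For the end of a direct repeat with 1 spacer base (CAAAGGTCA), the D-box (TTATGTAA) and a forkhead site (TGTTTAC) the shares were 0.645% and 0.645%, 0.322% and 1.29%, and 3.55% and 3.22%, against 0.527%, 0.673% and 3.29% of all promoters.

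Genes of fatty acid oxidation rose together. In the list of peroxisomal and microsomal enzymes 21 of 25 genes were higher and none was lower (median log2 fold change 1.30), and among mitochondrial genes 18 of 26 were higher and 1 was lower (median 0.75). Without fasted replicate 3 the counts were 21 and 18 higher, with no gene lower. Cyp4a14, a microsomal fatty acid omega-hydroxylase at chr4:115486200-115496158, was the most changed of the abundant genes with 12528, 9209 and 8144 CPM (read counts scaled to the size of the library) in fasted livers and 121, 174 and 153 CPM in fed livers (log2 fold change 6.07, SE 0.36, edgeR adjusted p = 6.69e-07). Its neighbour Cyp4a10, at chr4:115518287-115533649, had 5342, 5011 and 4178 CPM in fasted and 186, 222 and 169 CPM in fed livers (log2 fold change 4.66, SE 0.23, edgeR adjusted p = 2.86e-07). No fasted liver came near a fed one for either gene, and the same was true of Cyp4a31 (log2 fold change 4.03) and Cyp4a32 (3.21), the next genes on the chromosome. Reads shared between these near-identical genes were left out, since only reads with 1 alignment were counted. Counts from their shared sequence could thus be missing.

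Acyl-CoA thioesterases, which release free fatty acids from coenzyme A, rose together from a cluster on chromosome 12. Acot1 had 251, 230 and 270 CPM in fasted and 26.0, 25.3 and 22.3 CPM in fed livers, Acot2 had 88.3, 75.0 and 88.7 CPM in fasted and 9.48, 9.85 and 8.95 CPM in fed livers, and Acot3 had 38.9, 34.9 and 37.0 CPM in fasted and 1.41, 1.91 and 1.22 CPM in fed livers. The fasted livers held 3.36, 3.16 and 4.60 log2 units more of these transcripts, and these genes too are close copies of each other. Ehhadh, the peroxisomal bifunctional enzyme, had 2945, 1902 and 1816 CPM in fasted livers and 316, 311 and 331 CPM in fed livers. Vnn1, the pantetheinase that frees pantothenate, had 138, 160 and 117 CPM in fasted and 13.1, 15.8 and 10.8 CPM in fed livers.

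Carnitine genes were among the mitochondrial genes that rose. Crat, carnitine acetyltransferase, had 172, 163 and 179 CPM in fasted and 31.8, 30.1 and 27.5 CPM in fed livers, and the carnitine importer Slc22a5 had 110, 111 and 107 CPM in fasted and 20.0, 21.5 and 18.1 CPM in fed livers. Cpt1a, which catalyses the rate-limiting entry of long-chain fatty acids into mitochondria, had 798, 802 and 587 CPM in fasted livers and 352, 365 and 371 CPM in fed livers (log2 fold change 1.01, SE 0.14, edgeR adjusted p = 0.000315). The enzymes of the beta-oxidation spiral followed with smaller changes, such as Acadm, the medium-chain dehydrogenase, at 668, 636 and 570 CPM in fasted and 340, 342 and 355 CPM in fed livers. Echs1, a hydratase of the same pathway, was the member called lower (log2 fold change -0.41, SE 0.12, edgeR adjusted p = 0.0289, and 0.0511 to 0.0998 without any 1 of the 6 libraries). Ppara itself, the gene of the receptor, had 254, 285 and 199 CPM in fasted and 286, 234 and 182 CPM in fed livers, and these values overlapped (log2 fold change 0.08, SE 0.18, edgeR adjusted p = 0.778).

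Ketone body genes rose in 5 of 10 cases, and 1 was lower. The higher ones include the hormone gene Fgf21, which also counts among the ATF4 targets and the secreted regulators below. Slc16a1, a transporter of monocarboxylates such as ketone bodies and lactate, had 136, 140 and 127 CPM in fasted and 54.4, 43.9 and 41.6 CPM in fed livers. Fgf21 varied widely among the fasted livers, with 5.60, 32.6 and 13.3 CPM, while the fed livers had 0.454, 0.431 and 0.0813 CPM, and the groups did not overlap (log2 fold change 5.58, SE 0.78, edgeR adjusted p = 0.0003). Bdh2, a cytosolic dehydrogenase, was the member called lower (log2 fold change -1.05).

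**Figure D2:**
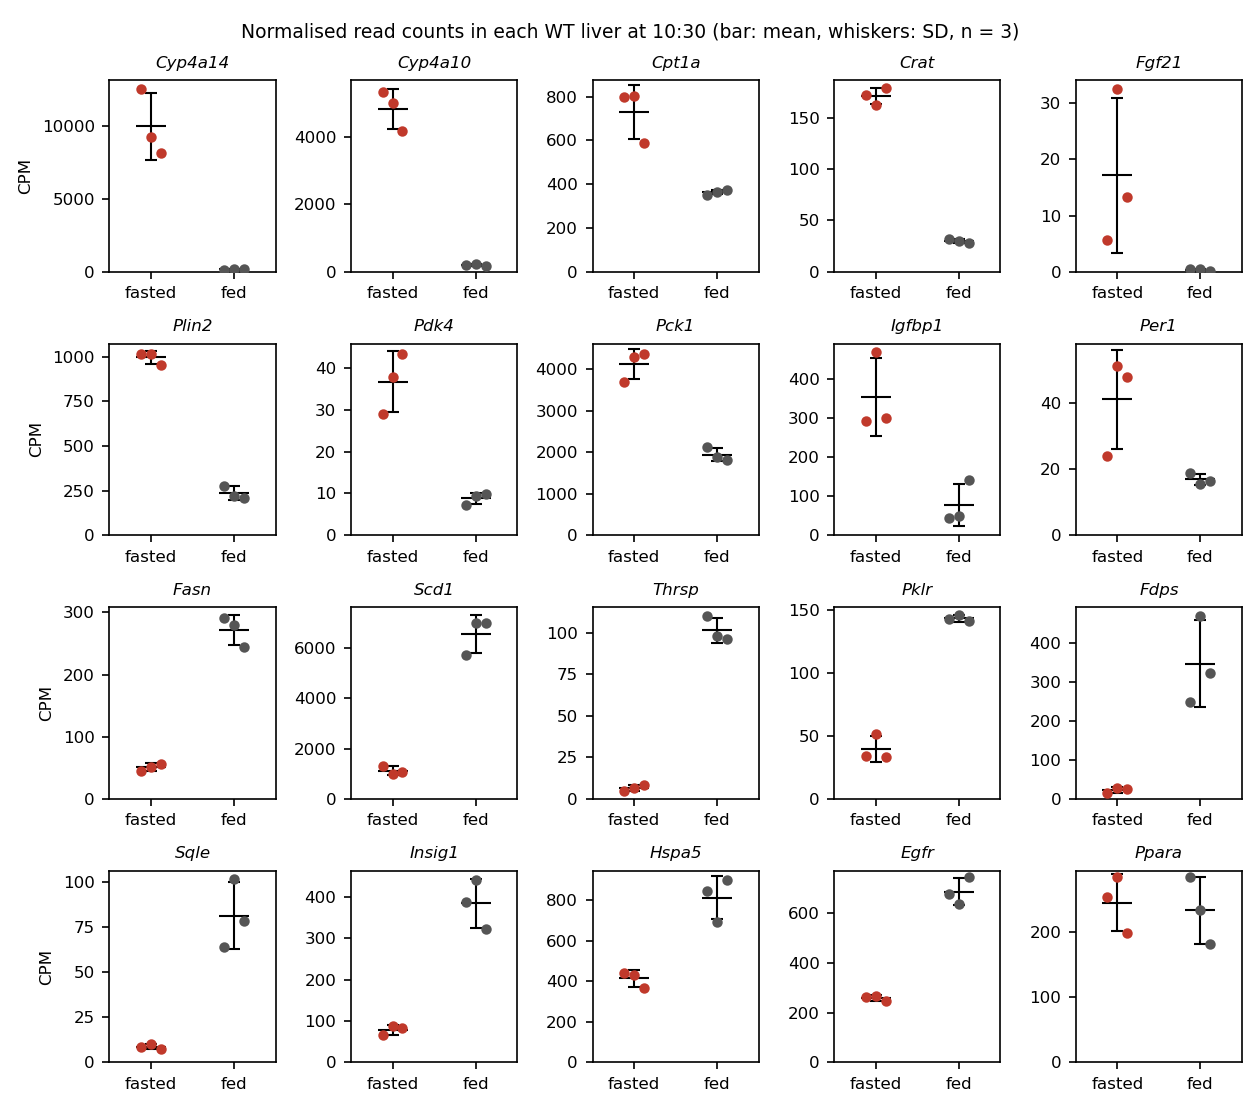
Normalised read counts (CPM, linear axes from 0) of 20 genes in each fasted (red) and fed (grey) WT liver at 10:30, with the mean and SD of 3 mice. Fasted livers lie above fed livers in the first 10 panels, below them in the next 9, and among them for Ppara.

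Genes of the lipid droplet were higher in 12 of 29 cases and lower in 2. Plin2, a coat protein of the droplet, had 1017, 1016 and 955 CPM in fasted livers and 278, 218 and 209 CPM in fed livers (log2 fold change 2.09, SE 0.23, edgeR adjusted p = 5.26e-05). Cidec, which promotes droplet fusion, had 14.5, 14.7 and 9.34 CPM in fasted and 0.862, 1.54 and 1.55 CPM in fed livers. G0s2, an inhibitor of the lipase ATGL, had 197, 487 and 426 CPM in fasted and 37.6, 29.4 and 14.1 CPM in fed livers. Pnpla2, which encodes ATGL, had 88.7, 102 and 118 CPM in fasted and 48.1, 54.5 and 54.5 CPM in fed livers. Both the lipase and its inhibitor were thus higher. The phosphatidate phosphatase Lpin1 was lower, with 83.5, 206 and 190 CPM in fasted and 309, 395 and 421 CPM in fed livers, and so was the lipoprotein lipase gene Lpl (log2 fold change -1.24). Angptl4, a secreted inhibitor of lipoprotein lipase, had 168, 280 and 321 CPM in fasted livers and 193, 202 and 139 CPM in fed livers, and was not called (log2 fold change 0.53, SE 0.26, edgeR adjusted p = 0.158). Among 22 genes of lipoprotein assembly 3 were higher and 1 was lower, a share (18.2%) below that of all genes (22.7%). Apoa4 moved most, with 1157, 1080 and 641 CPM in fasted and 120, 134 and 73.2 CPM in fed livers.

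Cholesterol synthesis had the highest share of lowered genes among the lists. Of its 23 genes 20 were lower and none was higher, with a median log2 fold change of -2.22, and 20 were lower without fasted replicate 3. Fdps, farnesyl diphosphate synthase, had 14.8, 27.7 and 25.6 CPM in fasted livers and 248, 468 and 321 CPM in fed livers (log2 fold change -3.93, SE 0.28, edgeR adjusted p = 2.77e-06). Sqle, squalene epoxidase, had 8.30, 10.1 and 7.38 CPM in fasted and 64.3, 102 and 78.7 CPM in fed livers. Idi1, isopentenyl diphosphate isomerase, had 39.0, 39.9 and 22.1 CPM in fasted and 303, 463 and 375 CPM in fed livers. Fed replicate 2 had the highest values of the fed livers for each of these 3 genes. Ggps1, which leads away from sterols, had 5.79, 6.11 and 5.77 CPM in fasted and 5.81, 5.17 and 4.64 CPM in fed livers and was not called, as were Hsd17b7 and Tm7sf2.

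The regulators of the pathway moved in different directions. Srebf2 had 37.0, 40.6 and 36.4 CPM in fasted and 59.3, 60.6 and 58.1 CPM in fed livers, a smaller change than that of the enzymes (log2 fold change -0.64, SE 0.14, edgeR adjusted p = 0.00472). Insig1 and Insig2 encode proteins that hold SREBP in the ER, and Insig1 is itself a target of SREBP. Insig1 had 65.1, 87.1 and 83.5 CPM in fasted and 388, 441 and 322 CPM in fed livers, whereas Insig2 had 762, 837 and 658 CPM in fasted and 284, 239 and 217 CPM in fed livers. The log2 fold changes were -2.28 (SE 0.20, edgeR adjusted p = 1.07e-05) for Insig1 and 1.61 (SE 0.23, edgeR adjusted p = 0.000338) for Insig2.

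Fatty acid and triglyceride synthesis was lower in 16 of 29 genes and higher in 3 (median log2 fold change -0.64). Fasn, fatty acid synthase, had 44.6, 51.7 and 56.4 CPM in fasted livers and 291, 279 and 244 CPM in fed livers (log2 fold change -2.41, SE 0.22, edgeR adjusted p = 1.37e-05). Scd1, the stearoyl-CoA desaturase at chr19:44394450-44407709, had 1323, 968 and 1070 CPM in fasted and 5707, 7004 and 6984 CPM in fed livers, and its close copies Scd2, Scd3 and Scd4 were lower as well. Acly, which makes cytosolic acetyl-CoA from citrate, had 73.0, 62.5 and 42.6 CPM in fasted and 270, 325 and 254 CPM in fed livers. Thrsp, a lipogenic nuclear protein, fell furthest, with 4.76, 6.52 and 8.60 CPM in fasted and 110, 98.0 and 96.2 CPM in fed livers. Srebf1, the gene of SREBP-1, had 43.3, 42.2 and 51.9 CPM in fasted and 126, 96.8 and 105 CPM in fed livers. Mlxipl, the gene of the carbohydrate sensor ChREBP, had 126, 146 and 198 CPM in fasted and 210, 184 and 193 CPM in fed livers and was not called (log2 fold change -0.32, edgeR adjusted p = 0.123), but was called lower without fasted replicate 3 (-0.52, edgeR adjusted p = 0.00753). The members called higher were Dgat1, Elovl2 and Agpat2 (the last with an edgeR adjusted p of 0.0629 to 0.115 without any 1 of 5 of the libraries), which act in triglyceride assembly, the elongation of polyunsaturated fatty acids and phosphatidate synthesis.

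**Figure D3:**
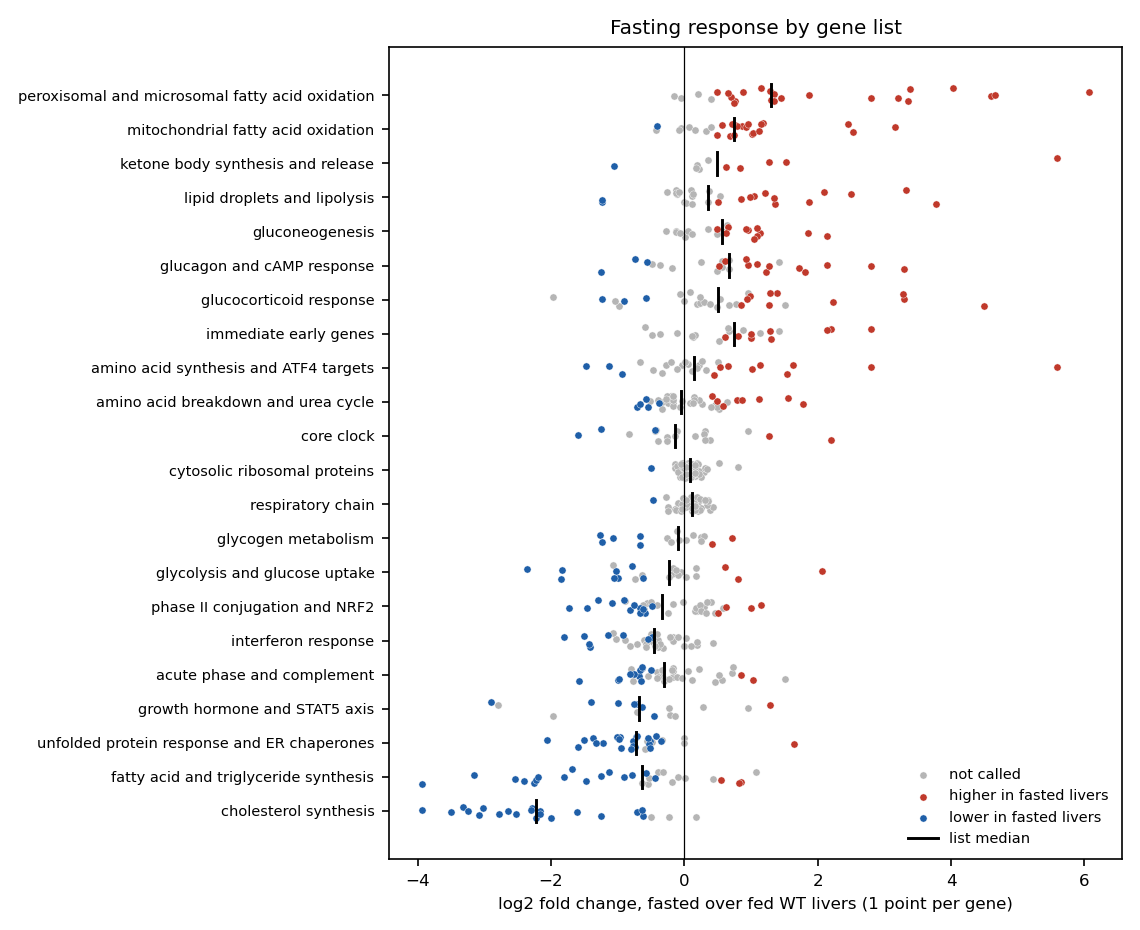
Each row is a gene list and each point a tested gene at its log2 fold change, fasted over fed, in red or blue where called and with the list median as a black bar. The oxidation lists have their medians to the right of 0, and cholesterol synthesis has its median at -2.22. The ribosomal protein and respiratory chain lists have medians of 0.09 and 0.11.

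Genes of glucose production were higher in 11 of 24 cases and none was lower (7 to 11 higher with each WT library left out in turn). Pck1, phosphoenolpyruvate carboxykinase, had 3698, 4296 and 4352 CPM in fasted livers and 2119, 1883 and 1813 CPM in fed livers (log2 fold change 1.09, SE 0.33, edgeR adjusted p = 0.029). This call was lost without fasted replicate 2 or 3 or any fed replicate (edgeR adjusted p = 0.0687 to 0.0926, with 0.0788 for fasted replicate 3) and under the correction for GC content (log2 fold change 0.82, edgeR adjusted p = 0.121), although all 3 fasted values lay above all 3 fed ones. G6pc, the catalytic subunit of glucose-6-phosphatase, had 471, 700 and 534 CPM in fasted and 299, 323 and 527 CPM in fed livers and was not called (edgeR adjusted p = 0.101), with fed replicate 3 inside the fasted range. Ldha, lactate dehydrogenase A, had 1265, 1315 and 1252 CPM in fasted and 655, 586 and 619 CPM in fed livers. Creb3l3, a liver transcription factor of the fasting response, had 457, 456 and 423 CPM in fasted and 264, 218 and 212 CPM in fed livers. The coactivator gene Ppargc1a had 30.3, 21.2 and 25.3 CPM in fasted and 18.8, 19.7 and 13.5 CPM in fed livers, which did not overlap but was not called (log2 fold change 0.57, SE 0.39, edgeR adjusted p = 0.312).

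Glucose use went the other way. Of 23 genes of glycolysis and glucose uptake 8 were lower and 3 were higher. Pklr, liver pyruvate kinase, had 34.3, 51.5 and 33.5 CPM in fasted and 143, 147 and 141 CPM in fed livers. Slc2a2, the glucose transporter GLUT2, had 167, 150 and 105 CPM in fasted and 290, 293 and 293 CPM in fed livers. Pdk4, which switches off pyruvate dehydrogenase, was the member that rose most, with 28.9, 37.9 and 43.3 CPM in fasted and 7.30, 9.36 and 9.84 CPM in fed livers (log2 fold change 2.07, SE 0.39, edgeR adjusted p = 0.0023). Among 16 glycogen genes 5 were lower and 2 were higher. Those lower included Pygl, liver glycogen phosphorylase, at 236, 237 and 217 CPM in fasted and 561, 534 and 535 CPM in fed livers. Ppp1r3b, a glycogen-targeting subunit of protein phosphatase 1, at 101, 182 and 170 CPM in fasted and 377, 317 and 390 CPM in fed livers. The higher members were Gys2, liver glycogen synthase (log2 fold change 0.42, edgeR adjusted p = 0.0332, and 0.0757 to 0.162 without any 1 of 4 of the libraries), and Gaa, a lysosomal enzyme that breaks glycogen down (log2 fold change 0.71).

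Targets of glucagon and cAMP were higher in 12 of 25 cases and lower in 3, and 9 of 22 immediate early genes were higher with none lower (5 to 10 higher with each WT library left out in turn). Sik1, a kinase induced by cAMP, had 23.2, 30.4 and 21.1 CPM in fasted and 6.17, 6.34 and 9.03 CPM in fed livers. Nr4a1, an orphan receptor induced by glucagon, had 3.44, 3.56 and 2.35 CPM in fasted and 0.817, 0.554 and 0.732 CPM in fed livers, with its call lost without fed replicate 2 (edgeR adjusted p = 0.0621). Jun had 16.7, 39.0 and 26.6 CPM in fasted and 6.26, 5.23 and 6.43 CPM in fed livers. Egr1 had 9.28, 13.3 and 7.24 CPM in fasted and 6.62, 11.9 and 8.87 CPM in fed livers, with overlapping ranges, and Myc was not called either (log2 fold change 0.52, SE 0.38, edgeR adjusted p = 0.34). Creb1 and Crem, genes of the CREB family itself, were lower (log2 fold changes -0.73 and -0.56), Crem not without fed replicate 2 (edgeR adjusted p = 0.0513).

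Insulin and FOXO genes were called in 9 of 33 cases, 6 higher and 3 lower, a share (27.3%) near that of all genes (22.7%), and 4 to 6 were higher with each WT library left out in turn. Igfbp1, an IGF-binding protein that insulin represses, had 294, 470 and 301 CPM in fasted livers and 44.8, 48.2 and 141 CPM in fed livers (log2 fold change 2.19, SE 0.53, edgeR adjusted p = 0.0101, and 0.0514 without fed replicate 2). Fed replicate 3 was the highest fed liver for Igfbp1, and also for the cAMP target Slc25a25, a mitochondrial ATP carrier, at 255, 405 and 212 CPM in fasted and 30.7, 34.7 and 177 CPM in fed livers (edgeR adjusted p = 0.0356, and 0.052 to 0.127 without fasted replicate 2 or 3 or fed replicate 1 or 2). Irs2 had 24.5, 13.5 and 8.996 CPM in fasted and 11.9, 15.9 and 12.4 CPM in fed livers and Foxo1 had 33.1, 46.1 and 40.4 CPM in fasted and 51.0, 44.0 and 36.0 CPM in fed livers, and neither was called. Txnip, an inhibitor of glucose uptake, was higher (log2 fold change 0.98, SE 0.25, edgeR adjusted p = 0.0141, and 0.054 to 0.0589 without fasted replicate 2 or fed replicate 1 or 3).

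Glucocorticoid targets split. Of 30 genes 10 were higher and 3 were lower. The metallothioneins Mt2 and Mt1, which bind zinc and copper, had 161, 328 and 377 CPM and 214, 378 and 448 CPM in fasted livers, against 3.63, 8.25 and 27.8 CPM and 14.4, 23.5 and 70.4 CPM in fed livers. Their log2 fold changes were 4.49 (SE 0.79) and 3.28 (SE 0.61), and within each group the livers kept the same order for both genes. Cdkn1a, the cell cycle inhibitor p21, had 40.4, 56.5 and 82.6 CPM in fasted and 14.4, 10.4 and 13.5 CPM in fed livers. Gadd45b had 6.23, 7.77 and 8.75 CPM in fasted and 0.499, 0.924 and 0.976 CPM in fed livers. Other widely used targets did not pass the test. Fkbp5, a co-chaperone of the receptor, had 59.3, 70.6 and 89.9 CPM in fasted and 48.7, 70.2 and 60.9 CPM in fed livers, Tsc22d3 (GILZ) had 57.3, 78.3 and 104 CPM in fasted and 172, 123 and 179 CPM in fed livers, and Tat, tyrosine aminotransferase, had 1709, 2722 and 3072 CPM in fasted and 1872, 1621 and 1877 CPM in fed livers. Nr3c1, the gene of the receptor, was lower (log2 fold change -0.58, SE 0.15, edgeR adjusted p = 0.0168, and 0.0611 without fed replicate 3).

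Secreted regulators were higher in 9 of 30 cases and lower in 4 (8 to 10 higher and 1 to 4 lower with each WT library left out in turn). Their share called was 43.3%, against 22.7% of all genes. Beside Fgf21 and Igfbp1, Inhbe had 48.9, 112 and 70.2 CPM in fasted livers and 18.4, 15.1 and 16.5 CPM in fed livers. Fst, follistatin, which binds activins, had 5.69, 4.15 and 4.01 CPM in fasted and 1.09, 1.29 and 1.30 CPM in fed livers. Igfbp2 had 799, 870 and 917 CPM in fasted and 413, 366 and 520 CPM in fed livers. Lepr, the leptin receptor gene, was higher by 1.06 log2 units (SE 0.22, edgeR adjusted p = 0.00402). Gdf15, a stress hormone, had 3.68, 7.77 and 5.38 CPM in fasted and 5.08, 4.99 and 1.55 CPM in fed livers and was not called, and Hamp, the iron hormone hepcidin, had 378, 447 and 1059 CPM in fasted and 508, 402 and 710 CPM in fed livers.

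The growth hormone axis was lower in 7 of 16 genes and higher in 1 (3 to 6 lower with each WT library left out in turn). Ghr, the growth hormone receptor, had 269, 364 and 299 CPM in fasted livers and 628, 634 and 605 CPM in fed livers (log2 fold change -0.998, SE 0.13, edgeR adjusted p = 0.000188), and Egfr, the EGF receptor, had 263, 269 and 247 CPM in fasted and 679, 639 and 746 CPM in fed livers. Igf1, the main growth factor made by the liver, changed less, with 476, 546 and 591 CPM in fasted and 773, 775 and 680 CPM in fed livers (log2 fold change -0.46, SE 0.14, edgeR adjusted p = 0.027), and was not called under the correction for GC content or without fasted replicate 1 or 2 or fed replicate 1 or 2 (edgeR adjusted p = 0.0684 to 0.0963). Cish, a target of STAT5 that follows growth hormone pulses, had 1.91, 2.37 and 1.03 CPM in fasted and 0.681, 18.9 and 20.5 CPM in fed livers, so that fed replicate 1 lay below every fasted liver, and the call (edgeR adjusted p = 0.0303) was lost without any 1 fasted replicate or fed replicate 2 or 3 (edgeR adjusted p = 0.0648 to 0.115). Of 23 male-biased genes 5 were lower and none was higher, a share (21.7%) near that of all genes (22.7%), with 0 to 2 higher and 3 to 7 lower when each WT library was left out in turn. Hsd3b5, a steroid-metabolising enzyme of the male liver, had 9.28, 18.5 and 16.8 CPM in fasted and 183, 176 and 195 CPM in fed livers. Of 18 female-biased genes 5 were higher and 1 was lower, a share of 33.3% against 22.7% of all genes. The higher ones included Acot3 and Abcd2, also in the list of peroxisomal and microsomal enzymes, and Cyp2b10, also among the P450 genes below. The abundant male-biased Mup genes were not called.

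ER chaperones and the unfolded protein response were lower in 22 of 29 genes, with 1 higher (median log2 fold change -0.72), and 19 were lower without fasted replicate 3, with none higher. Hspa5 had 441, 433 and 367 CPM in fasted livers and 843, 694 and 897 CPM in fed livers (log2 fold change -0.97, SE 0.15, edgeR adjusted p = 0.00065). Hyou1, a large ER chaperone, had 60.2, 53.7 and 60.04 CPM in fasted and 173, 114 and 168 CPM in fed livers. Calr, calreticulin, had 306, 292 and 329 CPM in fasted and 762, 696 and 706 CPM in fed livers. Sdf2l1, an ER protein of the DnaJ cycle, fell furthest, with 3.29, 5.52 and 5.13 CPM in fasted and 22.3, 19.1 and 16.5 CPM in fed livers. The cytosolic heat shock list differed, with 1 gene higher and 2 lower of 20 (0 higher and 0 or 1 lower with each WT library left out in turn). The higher member of the ER list, Derl3, had 0.736, 3.08 and 3.42 CPM in fasted and 1.13, 0.431 and 0.651 CPM in fed livers, with overlapping ranges, and its call was lost without fasted replicate 2 or 3 or fed replicate 2 or 3 (edgeR adjusted p = 0.0976 to 0.147). Targets of ATF4, the factor of the integrated stress response, were higher in 9 of 28 cases and lower in 3 (6 to 9 higher and 0 to 2 lower with each WT library left out in turn). Atf5 had 593, 693 and 699 CPM in fasted and 221, 235 and 184 CPM in fed livers and Trib3 had 16.9, 23.3 and 18.9 CPM in fasted and 10.6, 10.6 and 7.89 CPM in fed livers, whereas Asns, asparagine synthetase, had 17.2, 19.9 and 10.6 CPM in fasted and 6.67, 16.9 and 18.1 CPM in fed livers and was not called.

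Amino acid breakdown and the urea cycle were mixed, with 8 of 40 genes higher and 5 lower (5 to 8 and 3 to 6 with each WT library left out in turn). The share called was 32.5%, against 22.7% of all genes. Mat1a, which makes S-adenosylmethionine, had 12812, 9183 and 7366 CPM in fasted and 2798, 3335 and 3922 CPM in fed livers. Asl, argininosuccinate lyase of the urea cycle, had 984, 861 and 1071 CPM in fasted and 390, 473 and 483 CPM in fed livers. Cps1, the entry enzyme of the urea cycle, was measured at 5735, 3981 and 2604 CPM in fasted and 5906, 5879 and 5889 CPM in fed livers, where the fasted livers varied far more than the fed ones and fasted replicate 3 was lowest (log2 fold change -0.51, SE 0.26, edgeR adjusted p = 0.167). Few genes of the housekeeping machinery were called. Of 63 cytosolic ribosomal protein genes 1 was lower and none was higher, and of 47 respiratory chain genes 1 was lower and none was higher. Those shares were 1.59% and 2.13%, against 22.7% of all genes. The log2 fold changes ran from -0.49 to 0.80 (median 0.09) and from -0.47 to 0.42 (median 0.11).

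The core clock was called in 5 of 19 genes, 2 higher and 3 lower, a share (26.3%) near that of all genes (22.7%). Per1 had 24.0, 51.2 and 48.0 CPM in fasted livers and 18.9, 15.6 and 16.4 CPM in fed livers (log2 fold change 1.28, SE 0.29, edgeR adjusted p = 0.00719). Per3 had 1.23, 1.13 and 1.56 CPM in fasted and 3.67, 3.39 and 5.04 CPM in fed livers. Bhlhe40 had 18.3, 31.3 and 28.8 CPM in fasted and 62.2, 65.9 and 58.2 CPM in fed livers. Gm129 (Ciart), a repressor of CLOCK and BMAL1, was at 1.37, 2.31 and 3.81 CPM in fasted and 0.272, 0.431 and 1.06 CPM in fed livers, and its call was lost without fasted replicate 3 or fed replicate 1 or 2 (edgeR adjusted p = 0.0922 to 0.113). The call of Nr1d2, a repressor of Arntl (log2 fold change -0.44, edgeR adjusted p = 0.0251), was lost without any 1 of 5 of the libraries (edgeR adjusted p = 0.0568 to 0.0974). Arntl, which encodes BMAL1, had 31.7, 31.3 and 26.7 CPM in fasted and 23.2, 24.7 and 25.1 CPM in fed livers and was not called (log2 fold change 0.30, SE 0.23, edgeR adjusted p = 0.378). Clock, Dbp, Nr1d1, Cry1, Per2 and Npas2 were not called. Hnf4a, the subject of the study, had 810, 811 and 820 CPM in fasted and 700, 668 and 788 CPM in fed livers (log2 fold change 0.18, SE 0.15, edgeR adjusted p = 0.398).

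In bile acid metabolism 4 of 25 genes were higher and 4 were lower (1 to 4 higher with each WT library left out in turn, 1 without fed replicate 1). That was 32.0% called, against 22.7% of all genes. Cyp8b1, the 12-alpha-hydroxylase, had 1089, 1200 and 1041 CPM in fasted and 324, 506 and 371 CPM in fed livers (not called without fed replicate 1 or 3, edgeR adjusted p = 0.0657 and 0.0568), and Abcb11, the bile salt export pump, had 496, 421 and 369 CPM in fasted and 925, 997 and 962 CPM in fed livers. Cyp7a1, the rate-limiting enzyme of bile acid synthesis, had 61.5, 73.8 and 26.5 CPM in fasted and 54.4, 181 and 168 CPM in fed livers, where fed replicate 1 lay among the fasted livers and the gene was not called (log2 fold change -1.32, SE 0.51, edgeR adjusted p = 0.0817). Of 38 genes of drug-metabolising P450 enzymes 7 were higher and 9 were lower (4 to 6 and 7 to 9 with each WT library left out in turn), and of 36 genes of conjugation and the NRF2 response 4 were higher and 12 were lower. Cyp2b10, a target of the receptor CAR, had 117, 28.0 and 41.0 CPM in fasted and 18.6, 9.05 and 7.08 CPM in fed livers. Nr1i3, which encodes CAR, had 226, 235 and 320 CPM in fasted and 83.8, 82.3 and 101 CPM in fed livers. Cyp2c29 had 1098, 960 and 981 CPM in fasted and 2624, 2581 and 2808 CPM in fed livers. The glutathione transferases Gsta3 and Gstm3 were lower by 1.46 and 1.72 log2 units, and members of the Cyp2c and glutathione transferase families are close copies of each other.

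Immune genes moved in both directions. Of 36 interferon-response genes 8 were lower and none was higher, a share called (22.2%) near that of all genes (22.7%). Of all genes 10.6% were called lower. The median log2 fold change of the list was -0.46, and 2 to 7 were lower with each WT library left out in turn. The sums of Kupffer and endothelial markers given above were also lower, and their part was not tested. Gbp7, a guanylate-binding protein, had 5.89, 4.804 and 3.86 CPM in fasted and 15.8, 18.0 and 17.6 CPM in fed livers. Ly6e had 76.0, 73.0 and 67.0 CPM in fasted and 149, 160 and 170 CPM in fed livers. Among 40 acute phase and complement genes 11 were lower and 2 were higher (6 to 10 lower with each WT library left out in turn). This list had 32.5% called, against 22.7% of all genes. Steap4, a metalloreductase induced by cytokines, had 40.5, 44.7 and 36.2 CPM in fasted and 121, 113 and 132 CPM in fed livers, while Lbp, the lipopolysaccharide-binding protein, had 154, 167 and 167 CPM in fasted and 72.4, 80.4 and 86.6 CPM in fed livers. Saa1 had 12.6, 9.85 and 15.9 CPM in fasted and 10.8, 19.6 and 21.3 CPM in fed livers, with overlapping ranges. The neutrophil markers S100a8 and S100a9 and the B cell markers Cd79a and Cd79b were higher at low levels, and S100a9 had 2.16, 1.19 and 1.32 CPM in fasted and 0.181, 0.123 and 0.0813 CPM in fed livers. With 1 library left out, calls were lost for S100a8 (edgeR adjusted p = 0.064 without fed replicate 1), Cd79a (0.0632 to 0.137 without any 1 of 4 of the libraries) and Cd79b (0.0567 to 0.132 without any 1 of 5).

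Several of the largest changes belonged to no list. Car3, carbonic anhydrase 3, had 201, 406 and 289 CPM in fasted livers and 4579, 4973 and 4992 CPM in fed livers (log2 fold change -4.02, SE 0.24, edgeR adjusted p = 7.14e-07). Corin, a membrane protease known for processing natriuretic peptide in the heart, had 0.884, 0.475 and 0.440 CPM in fasted and 25.9, 26.2 and 12.9 CPM in fed livers, at chr5:72299948-72504540. Keg1 had 37.6, 34.6 and 32.7 CPM in fasted and 177, 242 and 219 CPM in fed livers. Retsat, retinol saturase, had 1411, 1416 and 1321 CPM in fasted and 379, 321 and 331 CPM in fed livers, and the fatty acid transporter gene Slc27a1 had 17.4, 19.3 and 18.7 CPM in fasted and 4.67, 4.86 and 5.12 CPM in fed livers. Dmbt1, a mucin-like secreted protein of epithelia, had 115, 94.1 and 0.440 CPM in fasted and 0.0454, 0.123 and 0 CPM in fed livers, so that its high level stood in 2 of the 3 fasted livers. The cholangiocyte markers Krt19, Krt7 and Muc1 were also higher in those 2 livers (Muc1 3.24, 2.79 and 0.636 CPM in fasted livers). Epcam, Sox9 and Tm4sf4 were highest in fasted replicate 3, and the part of bile duct or other epithelial cells in Dmbt1 was not tested.

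The fed livers of the other times gave a daily range beside which the fasted values could be set. All 3 fasted values lay above, or all below, those of all 9 fed WT livers of 10:30, 13:30 and 20:30 for 15.3% of all genes tested. Among the calls this held for 658 of the genes higher and 645 of the genes lower. The 13:30 and 20:30 livers were sequenced on flow cell 377, so time of day and flow cell cannot be told apart in this range, and it was not tested. Cyp4a14 (8144 to 12528 CPM) lay above the highest of the 9 fed livers (633 CPM), and Fgf21 (5.60 to 32.6 CPM) above 3.12 CPM. Pdk4 (28.9 to 43.3 CPM) lay above 9.84 CPM and Igfbp1 (294 to 470 CPM) above 141 CPM. Fasted values lay below the lowest of the 9 fed livers for Fasn (44.6 to 56.4 CPM, against 134 CPM), Sqle (7.38 to 10.1 CPM, against 40.7 CPM), Pklr (33.5 to 51.5 CPM, against 139 CPM) and Hspa5 (367 to 441 CPM, against 494 CPM). Other calls fell within the daily range or overlapped it. Per1 (24.0 to 51.2 CPM) lay within 15.6 to 54.9 CPM, Mt2 (161 to 377 CPM) reached past 287 CPM in 2 livers only, Mfsd2a (117 to 176 CPM), the carrier of lysophospholipids, overlapped a fed range that reached 135 CPM, and Hmgcs1 (101 to 108 CPM) lay within 89.1 to 852 CPM. The fed range of Corin began at 0.0675 CPM, below the fasted livers.

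**Figure D4:**
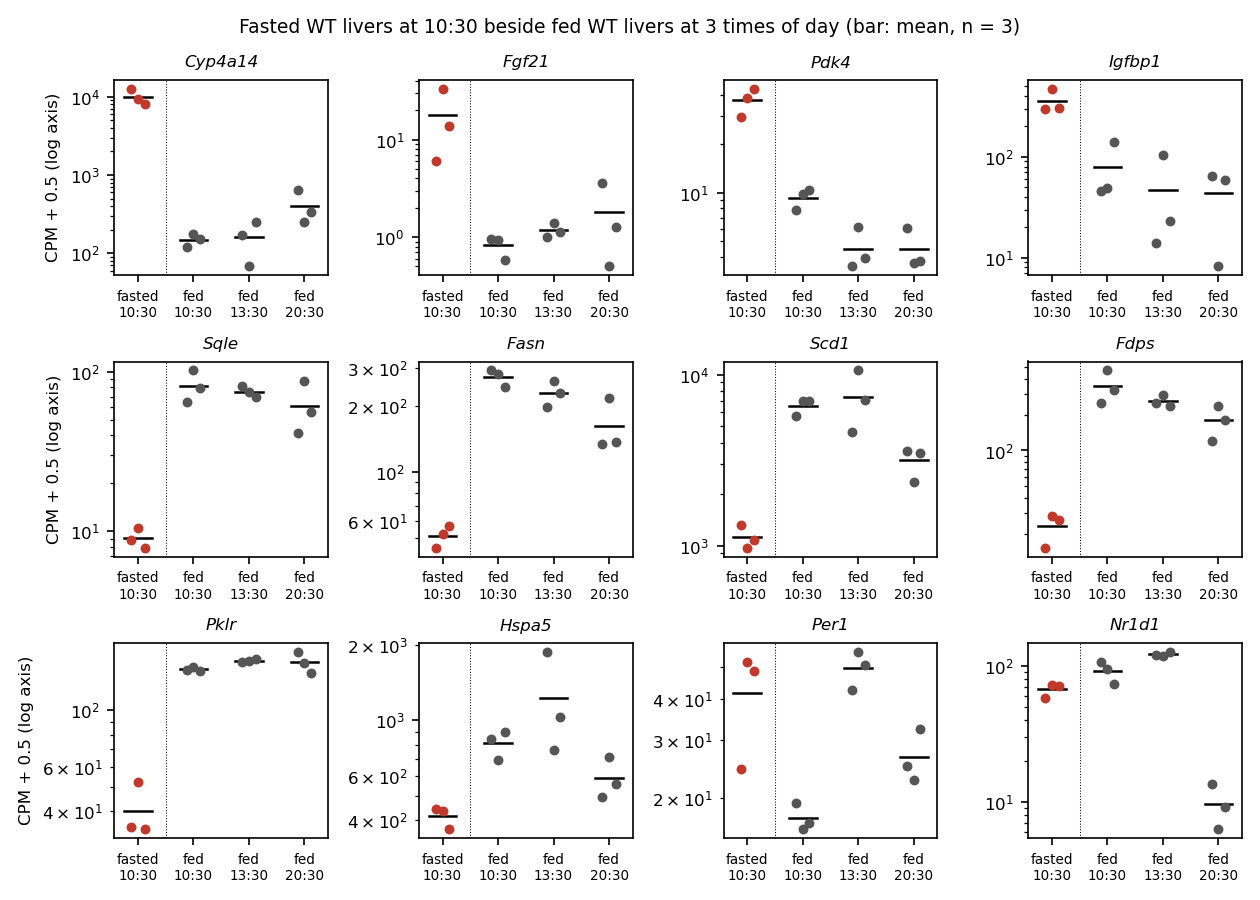
Points are single WT livers, fasted at 10:30 (red) or fed at 10:30, 13:30 and 20:30 (grey), with the mean of 3 mice as a bar and CPM plus 0.5 on log axes. The fasted livers lie outside the fed range in the panels from Cyp4a14 to Hspa5, and inside it for Per1 and Nr1d1.

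The fasting response of WT livers was last set beside that of α7HMZ livers. In the same fit 875 genes were higher and 773 lower in fasted than in fed α7HMZ livers. A difference between the responses was called for 33 of the genes tested (0.252%), of which 9 were among the genes higher and 16 among the genes lower in fasted WT livers. The fasted α7HMZ libraries were on flow cell 377 and the other 10:30 libraries on 375. Fasting and flow cell thus cannot be told apart in the α7HMZ counts, nor genotype and flow cell in the difference between the responses. In addition, 1 fed α7HMZ library held 50.8% of its counts in the ribosomal RNA gene Rn45s. Mfsd2a had a log2 fold change, fasted over fed, of -1.76 in α7HMZ livers and of 3.18 in WT livers, which held 117, 168 and 176 CPM when fasted and 12.7, 12.3 and 26.5 CPM when fed. Apoa4 differed by 0.03 log2 units between fasted and fed α7HMZ livers and by 3.14 between fasted and fed WT livers. Fed α7HMZ livers already held less of it, with 6.99, 11.8 and 11.9 CPM against 120, 134 and 73.2 CPM in fed WT livers. Cyp4a14 was higher in the fasted livers of both genotypes, by 3.55 log2 units in α7HMZ and by 6.07 in WT livers. Its fasted levels overlapped, with 11394, 13256 and 6930 CPM in α7HMZ and 12528, 9209 and 8144 CPM in WT livers. The fed levels did not, with 1274, 661 and 751 CPM in α7HMZ and 121, 174 and 153 CPM in WT livers.

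**Figure D5:**
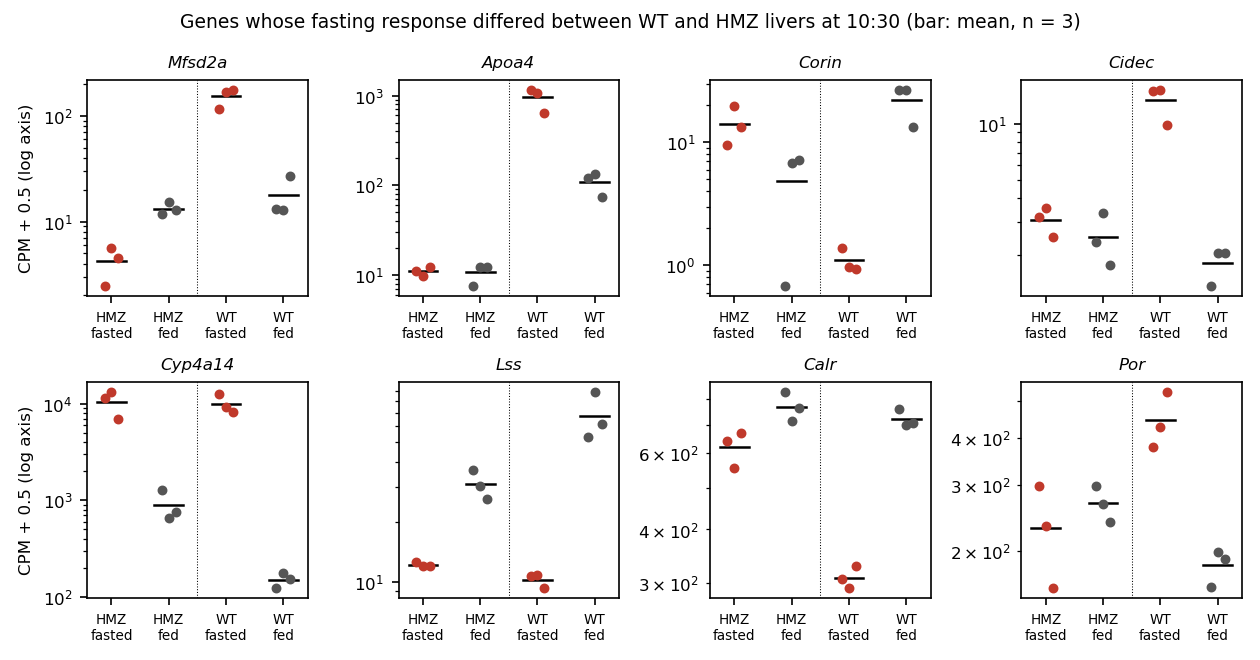
Points are single livers of 10:30 in the order α7HMZ (HMZ) fasted, α7HMZ fed, WT fasted and WT fed, with the mean of 3 mice as a bar and CPM plus 0.5 on log axes. Fasted and fed α7HMZ livers overlap for Apoa4, Cidec and Por, while the fasted WT livers lie apart from the fed WT livers in all 8 panels.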

How the data were processed

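Per the labels and methods, the authors took poly(A) RNA through unstranded libraries, aligned 75-base single reads to mm10 with TopHat2 2.1.1, kept uniquely aligned reads, and deposited raw counts per gene from HTSeq 0.6.1. FPKM files were not used. Reads of overlapping or antisense genes cannot be told apart. Counts as deposited were tested with edgeR 4.0.16 (R 4.3.3): genes kept by filterByExpr, TMM scaling, quasi-likelihood F-test on the 12 libraries of 10:30 in 4 groups, Benjamini-Hochberg adjustment. The GC correction used offsets for GC content and full quantiles. CPM used TMM factors. Each mouse is 1 replicate (n = 3). The p-values set the difference between group means against the spread among libraries of single mice, estimated over all 4 groups. Named genes were those with the largest changes or smallest p, the 4 members of each list with the smallest p, and a set of fasting genes; further examples were chosen after their values were seen. Members and lists were chosen with earlier results of these data known. Lists share members, so that 1 gene can count in several lists. The test was tested on simulated data. Alternatives were other scalings, filters, library sets, DESeq2 1.42.0 and a replicate block. Some genes are not reported here.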

Additional observations from a re-analysis of the deposited data

Results flagged for a closer look

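For 10 of the genes named in the text the response to fasting differed between genotypes by the interaction of edgeR's fit, α7HMZ minus WT, with flow cell and genotype not separable. The difference was -4.94 log2 units for Mfsd2a (α7HMZ -1.76, WT 3.18), -3.11 for Apoa4 (0.03, 3.14) and 6.76 for Corin (1.61, -5.15), and these 3 genes were called in each of 15 alternatives. In the fed α7HMZ library rich in Rn45s, Corin had 0.17 CPM, against 6.24 and 6.65 CPM in the other two. For Cyp2b10 the difference was -5.42 (-3.01, 2.41), called in 9 of 15 alternatives. It was -2.90 for Cidec (0.42, 3.32) and -2.51 for Cyp4a14 (3.55, 6.07), each called in 11 of 15 alternatives. For Cyp4a14 the fasted levels of the genotypes overlapped and the fed levels did not. The difference was -1.50 for Por, the electron donor of P450 enzymes (-0.22, 1.28), 1.41 for Lss, lanosterol synthase (-1.37, -2.78), 0.96 for Pdia4 (-0.05, -1.004) and 0.91 for Calr (-0.31, -1.22), each called in 5 of 15.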

How the results depend on the processing

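Over other scalings and filters, GC offsets, DESeq2 and fits of the WT livers, of all 24 libraries or without the Rn45s-rich one, 1403 to 1963 genes were higher and 1231 to 1806 lower. With a replicate block over the WT livers the counts were 1760 and 1869, although same-numbered livers did not deviate together (r = 0.020, 0.048 and 0.104). Against a 1.2-fold change 883 were higher and 806 lower, and 442 and 462 moved by 2-fold or more, as fewer genes can pass. With each WT library left out in turn the counts were 931 to 1543 higher and 850 to 1372 lower. The genotype difference was called for 92 genes with all 24 libraries, 84 without the Rn45s-rich library and 8 to 84 with each library left out. Of the called genes 1303 lay outside the fed range of the day, and 2946 outside that of 10:30 alone. No call changed direction in these settings. A fit of WT livers without fasted replicate 3, chosen after seeing the data, gave 2069 and 1971.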

Other observations

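Autophagy and lysosome genes were higher in 7 of 34 cases and lower in 4, with 4 to 6 higher when each WT library was left out in turn. Map1lc3a and Bnip3, an autophagosome protein and a mitophagy receptor, were higher by 1.35 and 1.25 log2 units in fasted than in fed WT livers, and Atg14, an initiation factor, was lower (log2 fold change -0.74). Iron genes split, with 5 of 29 higher and 6 lower (4 to 6 and 3 to 5 in the same fits). The shares called were 32.4% for autophagy and lysosome genes and 37.9% for iron genes, against 22.7% of all genes. Fth1, ferritin heavy chain, and Hfe2, the hemojuvelin gene, were higher (log2 fold changes 0.62 and 1.06), while Slc40a1, the iron exporter ferroportin, and Aco1, the iron regulatory protein IRP1, were lower (-0.62 and -0.70).

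Of 29 cell cycle genes 6 were higher and 6 were lower (3 to 6 and 2 to 5 with each WT library left out in turn). Ccnd2 was lower by 1.51 log2 units, with Mcm3 at -1.02, while Ccnd3 was higher by 0.95. Perivenous genes were higher in 5 of 20 cases and lower in 5 (3 to 5 and 5 to 6 in these fits). Among the higher ones were Axin2 and Tbx3 (log2 fold changes 1.02 and 1.13). The lower ones included Lect2, Cyp1a2, Gulo and Slc1a4. Of 16 Wnt pathway genes and oncogenes of the study 2 were higher and 2 lower (2 to 3 and 2 to 3). That share (25.0%) was near that of all genes (22.7%). Periportal genes were higher in 6 of 19 cases and lower in 1 (5 to 6 and 1 to 3). Among 25 vitamin and one-carbon genes 4 were higher and 7 lower (3 to 4 and 3 to 4). Among 29 genes of sphingolipids and phospholipids 4 were higher and 5 lower (2 to 4 and 2 to 4). The shares called were 41.4% for cell cycle, 36.8% for periportal, 44.0% for vitamin and one-carbon and 31.0% for sphingolipid and phospholipid genes. Gaa, the lysosomal enzyme that breaks down glycogen, had 109, 109 and 109 CPM in fasted and 67.3, 66.5 and 66.4 CPM in fed livers.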
